A study of Caenorhabditis elegans with 6 samples.

Results

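The transthyretin-related genes of Caenorhabditis elegans (ttr genes) were taken as every gene on the array whose symbol starts with ttr-, with 1 probe per gene. This gave 49 genes out of 18999 features tested, and a further 10 ttr genes in the RefSeq gene table had no probe assigned here. None of the 49 had a choice between several probes, and the platform's own annotation gave the same symbol for all 49. The rule did not use any measured difference between treatments.

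The ttr genes encode small secreted proteins with a domain related to vertebrate transthyretin, a carrier of thyroid hormone and retinol in blood. The family is greatly expanded in nematodes, and most of its members have no known function. The exceptions include TTR-52, which bridges phosphatidylserine on dying cells and the engulfment receptor CED-1, and TTR-33, which protects dopaminergic neurons from oxidative damage. Chlorpyrifos (CPF) and diazinon (DZN) are organophosphorus pesticides that inhibit acetylcholinesterase, the enzyme that removes acetylcholine at synapses.

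Nematodes of the wild-type strain N2 were reared at 24 °C from synchronized eggs, either on agar with 0.5 mg/L of CPF and 1 mg/L of DZN (CPF+DZN) or on agar with acetone alone, the solvent that both groups received. Each of 6 two-colour arrays compared 1 CPF+DZN extract with 1 control extract, with the mixture in Cy5 on 3 arrays and in Cy3 on 3. According to the study's methods, animals from several dishes were pooled for each extract. The stage in the labels is L3 to L4 at an age of 72 h, and the methods of the study state fewer hours at 24 °C. There was no sample with CPF or DZN alone among those analysed here, so the contribution of each pesticide cannot be told apart.

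A spot is called detected below where its foreground median lay over 2 background SDs above the local background, which held for 44.1 to 58.1% of the spots of a channel. Over all features the arrays correlated with each other with r from 0.237 to 0.714, and mixture in Cy5 replicate 3 had the lowest mean r with the others (0.276). Marker lists of reproduction were lower with CPF+DZN. All 6 measured vitellogenin (yolk protein) genes, 19 of 20 oocyte genes and 11 of 17 sperm genes were called lower, with median log2 ratios of -1.64, -1.33 and -0.70. All 6 vitellogenin and 19 oocyte genes were detected in both groups on at least 3 arrays, although the labelled stage is larval. Of the somatic lists, 9 of 19 epidermis and molting genes and 6 of 11 intestine genes were called higher and none lower. The size of the oocyte shift differed between arrays, from a median of -2.21 on mixture in Cy5 replicate 2 to -0.22 on mixture in Cy5 replicate 3. In extracts of whole animals, fewer cells of a type and less RNA per cell cannot be told apart.

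With CPF+DZN, 8 of the 49 ttr genes were called higher and 6 lower, and 35 did not pass the test (limma on the log2 ratios of mixture over control, two-sided, Benjamini-Hochberg adjusted p under 0.05 over all features). The called genes were 16.3% of the family in the higher direction and 12.2% in the lower one. Over all features, 6.74% were called higher and 7.13% lower, 13.9% together, against 28.6% of the ttr genes. The probes of the family were detected more often than most. Of the family 85.7% (42 genes), against 53.2% of all features, were detected in both groups on at least 3 arrays. Among the features detected in this way 11.7% were called higher and 11.7% lower, and of the 42 detected ttr genes 8 (19%) and 5 (11.9%) were. The share of lower calls was therefore near that of detected features in general. With arrays centred on their median in place of loess, the split of the family turned to 4 higher and 14 lower, and that of all features turned the same way, to 3.57% higher and 18.1% lower.

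Fitted log2 ratios were above 0 for 32 ttr genes and below 0 for 17, with a median of 0.079 and quartiles of -0.22 and 0.39. All features had a median of 0.00013 and quartiles of -0.14 and 0.12. Set against detected features only, the quartiles were -0.21 and 0.40 for the 42 detected ttr genes and -0.23 and 0.24 for the features, so that the family was wider on the upper side and not on the lower one. For 15 ttr genes the ratio had the same sign on all 6 arrays, above 0 for 8 and below 0 for 7, which was 30.6% of the family against 17.4% of all features. This share was not set against detected features only. No ttr gene had a saturated spot. For no ttr gene did the gene-specific dye effect have an adjusted p under 0.05, and 8 had an unadjusted p under 0.05.

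**Figure D1:**
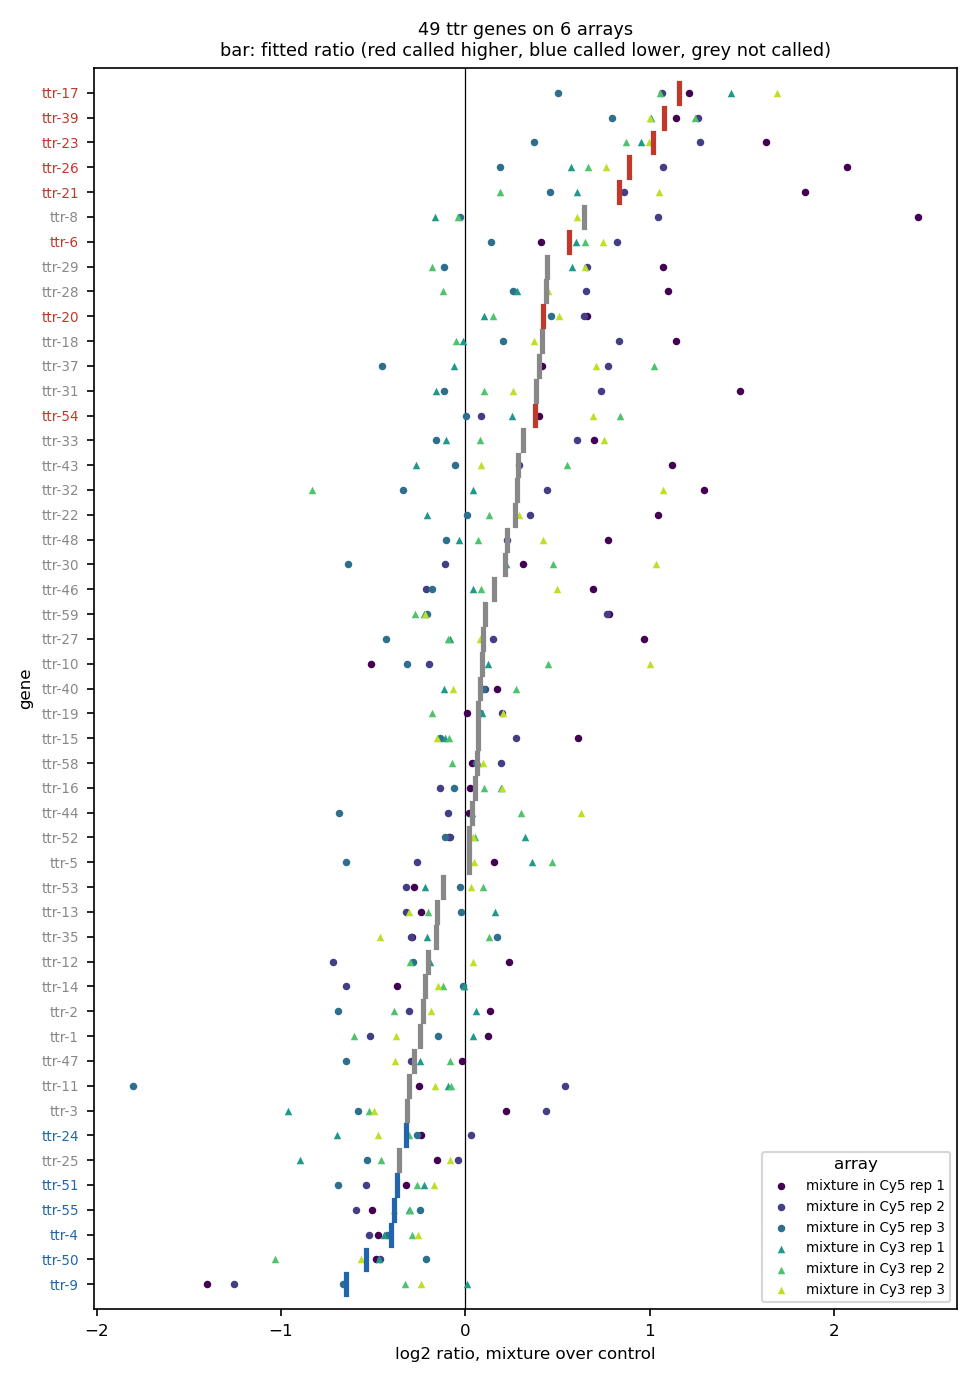
Log2 ratio of mixture over control (x axis) of the 49 ttr genes (y axis) on each of the 6 arrays (circles, mixture in Cy5; triangles, mixture in Cy3), with the fitted ratio as a bar. The 8 genes called higher (red) lay above 0 on all 6 arrays, and several uncalled genes (grey), ttr-8 first, had 1 array far to the right.

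The largest increases were in ttr-17, ttr-39 and ttr-23, the only called ttr genes that changed at least 2-fold, and no ttr gene was called lower by as much. For ttr-17 (Y5F2A.2) the log2 ratios were 1.21, 1.07 and 0.50 on the arrays with the mixture in Cy5 and 1.44, 1.06 and 1.69 on those with the mixture in Cy3. The ratio was 1.16 ± 0.40 (SD, n = 6 arrays), a 2.24-fold increase, with a limma adjusted p of 0.00234. The lowest array was mixture in Cy5 replicate 3 and the other 5 were all above 1.

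ttr-39 (C04G2.1) was the steadiest of the increases. In C. elegans its promoter is used as a marker of the D-type motor neurons, inhibitory GABA neurons of the ventral cord. Its ratios were 1.15, 1.26 and 0.80 with the mixture in Cy5 and 1.01, 1.25 and 1.00 with the mixture in Cy3. The log2 ratio was 1.08 ± 0.18 (SD, n = 6 arrays), 2.11-fold, with a limma adjusted p of 0.000852, and its level with CPF+DZN exceeded that of the control by a similar amount on every array. The mean was 1.07 with the mixture in Cy5 and 1.09 with it in Cy3.

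Genes of GABA neurons (5 genes), chosen after the value of ttr-39 was seen, stood beside it as follows. Only unc-25, which encodes the enzyme that makes GABA, was called higher, with a log2 ratio of 0.58 ± 0.37 (SD, n = 6 arrays) and a limma adjusted p of 0.0256. The other 4 (snf-11, unc-30, unc-46 and unc-47) did not pass the test, with ratios from -0.23 to 0.38. The probes of unc-30, unc-46 and unc-47 were detected on no array. Of 12 measured genes of the general neuron list 1 was called higher and 1 lower, with a median of 0.32.

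For ttr-23 (T21C9.8) the ratios were 1.63, 1.27 and 0.37 with the mixture in Cy5 and 0.95, 0.87 and 1.00 with the mixture in Cy3. The log2 ratio was 1.02 ± 0.42 (SD, n = 6 arrays), 2.02-fold, with a limma adjusted p of 0.00898. As for ttr-17, mixture in Cy5 replicate 3 was the lowest array. The calls of ttr-17, ttr-39 and ttr-23 held with any 1 of the 6 arrays left out.

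ttr-26 and ttr-21 had increases of similar size that were uneven between arrays. For ttr-26 (Y51A2D.11) the ratios were 2.07, 1.08 and 0.19 with the mixture in Cy5 and 0.57, 0.67 and 0.76 with the mixture in Cy3, which gave 0.89 ± 0.65 (SD, n = 6 arrays; limma adjusted p = 0.0308). For ttr-21 (F09F3.6) they were 1.84, 0.86 and 0.46 and then 0.60, 0.19 and 1.05, which gave 0.83 ± 0.58 (SD, n = 6 arrays; limma adjusted p = 0.0267). Both were highest on mixture in Cy5 replicate 1, where the ratio was more than 1 log2 unit above the fitted value.

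The other 3 genes called higher changed less. ttr-6 (T28B4.3) had ratios of 0.41, 0.82 and 0.14 with the mixture in Cy5 and 0.60, 0.65 and 0.75 with it in Cy3, a mean of 0.56 ± 0.25 (SD, n = 6 arrays; limma adjusted p = 0.0142). ttr-20 (F36A4.8) had 0.66, 0.65 and 0.47 and then 0.10, 0.15 and 0.51, a mean of 0.42 ± 0.24 (SD, n = 6 arrays; limma adjusted p = 0.0196). ttr-6 was lowest on mixture in Cy5 replicate 3, and ttr-20 on mixture in Cy3 replicates 1 and 2. ttr-54 (T14G10.4) had 0.40, 0.086 and 0.0068 and then 0.26, 0.84 and 0.69, a mean of 0.38 ± 0.33 (SD, n = 6 arrays; limma adjusted p = 0.0459), so that 2 of its arrays were close to 0.

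The 6 decreases were smaller than the larger increases. ttr-9 (C33A12.15) had log2 ratios of -1.40, -1.25 and -0.67 with the mixture in Cy5 and of 0.012, -0.33 and -0.24 with it in Cy3, a mean of -0.65 ± 0.57 (SD, n = 6 arrays; limma adjusted p = 0.0131). The arrays with the mixture in Cy5 were all lower than those with it in Cy3. In a fit without the gene-specific dye effect, ttr-9 was not called (limma adjusted p = 0.0576). Its probe was detected on 3 arrays for the mixture and on 5 for the control.

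ttr-4 (F40F12.1), ttr-55 (F56F4.2) and ttr-51 (JC8.8) were below 0 on all 6 arrays. The RefSeq table lists ttr-4 as a pseudogene. Its ratios were -0.48, -0.52 and -0.42 with the mixture in Cy5 and -0.44, -0.29 and -0.26 with it in Cy3, a mean of -0.40 ± 0.11 (SD, n = 6 arrays; limma adjusted p = 0.0141). ttr-55 had -0.50, -0.59 and -0.24 and then -0.30, -0.30 and -0.39, a mean of -0.39 ± 0.13 (SD, n = 6 arrays; limma adjusted p = 0.0195). Its probe was detected on 3 arrays for the mixture and on all 6 for the control. ttr-51 had -0.32, -0.54 and -0.69 and then -0.22, -0.26 and -0.17, a mean of -0.37 ± 0.20 (SD, n = 6 arrays; limma adjusted p = 0.0226). ttr-4 and ttr-55 spread less between arrays than ttr-39 did.

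ttr-24 (Y51A2D.9) had -0.24, 0.033 and -0.26 and then -0.69, -0.30 and -0.47, a mean of -0.32 ± 0.24 (SD, n = 6 arrays; limma adjusted p = 0.0440), and was above 0 on 1 array. The sixth decrease, in ttr-50 (F58B3.9; limma adjusted p = 0.0148), has no usable size. Its ratios were -0.48, -0.46 and -0.21 with the mixture in Cy5 and -0.47, -1.03 and -0.57 with it in Cy3. The probe was detected on no mixture array and on 1 control array, and no lower bound of the fold above 1 could be given.

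Of the 35 ttr genes that did not pass the test, 24 had ratios above 0 and 11 below, from -0.36 for ttr-25 to 0.65 for ttr-8. An unadjusted p under 0.05 was reached by 5 of them, ttr-18, ttr-25, ttr-28, ttr-29 and ttr-47, with adjusted p from 0.0576 to 0.131. Only 3 (ttr-14, ttr-25 and ttr-47) kept one sign on all 6 arrays, below 0 in each case. ttr-8 (R13A5.6) had a larger ratio than ttr-6 and was not called. Its ratios were 2.45, 1.05 and -0.027 with the mixture in Cy5 and -0.17, -0.038 and 0.60 with it in Cy3, so that 3 of the 6 arrays were below 0 and the SD was 1.00 (n = 6 arrays; limma adjusted p = 0.177).

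Of the members with a known role, ttr-33 and ttr-52 were not called. TTR-33 is needed in C. elegans for the resistance of dopaminergic neurons to oxidative damage. ttr-33 had ratios of 0.70, 0.61 and -0.16 with the mixture in Cy5 and -0.10, 0.079 and 0.75 with it in Cy3, a mean of 0.31 ± 0.42 (SD, n = 6 arrays; limma adjusted p = 0.223), and its arrays lay on both sides of 0. The probe of ttr-52 was detected in neither group on any array, and the same held for ttr-19 and ttr-58, so that a change in these genes was not detectable. The ratios of ttr-52 were -0.091, -0.083 and -0.11 and then 0.32, 0.056 and 0.043 (limma adjusted p = 0.892). ttr-11 was detected on 1 control array only. Its ratios were -0.25, 0.54 and -1.80 and then -0.093, -0.075 and -0.17 (limma adjusted p = 0.512).

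TTR-52 acts with genes for the recognition and engulfment of dying cells, and 25 of these were measured. In this clearance list 4 were called higher and 1 lower, with a median log2 ratio of 0.061. Of the 25 genes, 22 were detected in both groups on at least 3 arrays. Among all features detected in this way 11.7% were called higher and 11.7% lower, and over all features 13.9% were called. The calls are therefore given as values of single genes and not as a result about the list. ced-1, the engulfment receptor, had 0.39 ± 0.61 (SD, n = 6 arrays; limma adjusted p = 0.175). Of the factors that act with it on phosphatidylserine, ced-7, an ABC transporter, had 0.25 ± 0.21 (adjusted p = 0.108) and nrf-5, a secreted lipid-binding protein, 0.10 ± 0.14 (adjusted p = 0.467). psr-1, the phosphatidylserine receptor gene, had -0.25 ± 0.54 (adjusted p = 0.361).

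The clearance genes called higher were dyn-1, a dynamin (0.37 ± 0.16, limma adjusted p = 0.0153), pat-2 and pat-3, the integrin subunits that also anchor body wall muscle (0.47 ± 0.33 and 0.47 ± 0.21, adjusted p = 0.0334 and 0.0176), and eff-1, a cell fusion protein of the epidermis (0.74 ± 0.58, adjusted p = 0.0478), each with the SD over 6 arrays. lst-4, a sorting nexin, was called lower at -0.35 ± 0.27 (adjusted p = 0.0404). With all probes of a gene averaged, lst-4 (-0.083), eff-1 (0.30) and dyn-1 (0.20) were not called, and none of the 5 genes kept its call without mixture in Cy5 replicate 2 or without mixture in Cy3 replicate 2 or 3 (adjusted p from 0.0547 to 0.170). Beside the clearance of dying cells, these genes are known for roles in muscle attachment, membrane traffic and cell fusion. The 2 genes for transthyretin-like hydrolases, enzymes of purine breakdown that are related to transthyretin, were not called. R09H10.3 had 0.11 ± 0.22 (SD, n = 6 arrays; adjusted p = 0.535) and ZK697.8 was detected on no array.

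On the RefSeq assembly WBcel235, 21 of the 49 genes lay within 5 kb of another member, in 9 sets of 2 or 3. In 5 sets no gene was called, in 3 exactly 1 was, and 1 set held calls in both directions. ttr-17 rose while its neighbour ttr-16 had a ratio of 0.054 (adjusted p = 0.691), and the difference between them was 1.11 ± 0.32 (SD, n = 6 arrays), with ttr-17 the higher on all 6 arrays.

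In the set of ttr-24, ttr-25 and ttr-26, ttr-24 was called lower, ttr-26 higher, and ttr-25 was not called (-0.36 ± 0.33, limma adjusted p = 0.0913). The ratio of ttr-26 exceeded that of ttr-24 by 1.21 ± 0.61 (SD, n = 6 arrays), by 0.45 at the least and 2.31 at the most, and that of ttr-25 by 1.25 ± 0.54. It was the highest of the 3 on every array. ttr-54 exceeded ttr-53 by 0.50 ± 0.26 and ttr-55 was below ttr-58, a gene detected on no array, with ttr-58 higher by 0.45 ± 0.20, again on all 6 arrays. These differences compare ratios between probes and carry no test, and these sets are named because they hold a call.

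Of the sets with no call, ttr-1, ttr-2 and ttr-3 had ratios of -0.25, -0.23 and -0.32, and each was below 0 on 4 of 6 arrays. ttr-27, ttr-28 and ttr-29 had 0.10, 0.44 and 0.45. ttr-32 and ttr-8 had 0.28 and 0.65, and ttr-8 was the higher of the pair on 4 of 6 arrays. The differences that varied most between arrays were those of ttr-12 from ttr-11 (0.11 ± 0.91) and of ttr-30 from ttr-59 (0.11 ± 0.83; SD, n = 6 arrays).

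**Figure D2:**
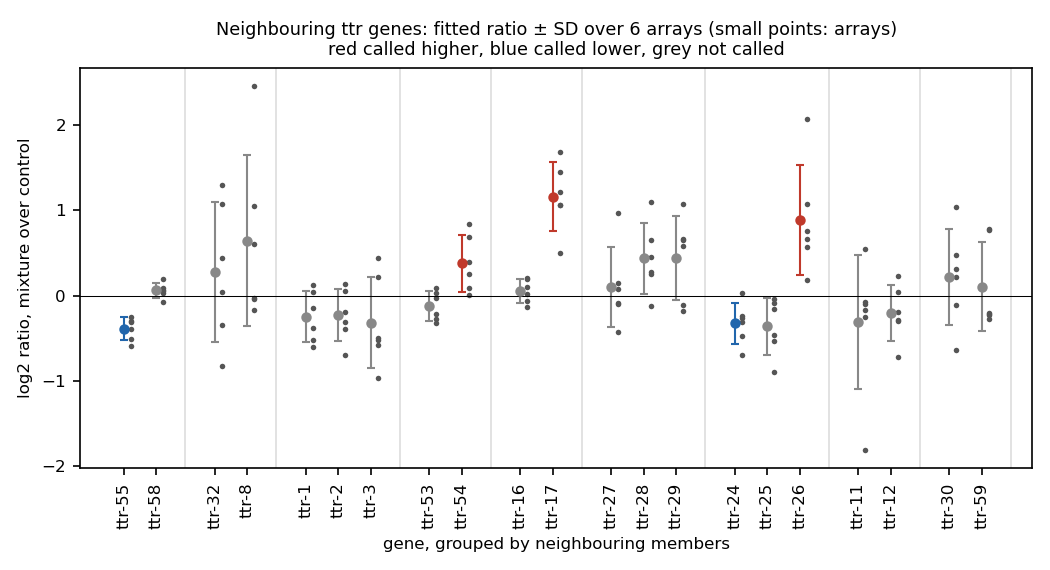
Fitted log2 ratio of mixture over control (y axis) of the 21 ttr genes that neighbour another member (x axis, grouped by set), with the SD over 6 arrays as error bars and the arrays as small points. ttr-17 and ttr-26 stood above their neighbours, and ttr-24 and ttr-26 of the same set were called in opposite directions.

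The arrays differed in how far the family moved. On mixture in Cy5 replicate 1, 13 of the 49 ttr genes had a log2 ratio above 1, which was 26.5% of them against 3.45% of all features, and 8 of these 13 were not called over the 6 arrays. Between 2 and 6 genes were above 1 on the other arrays except mixture in Cy5 replicate 3, where none was and 34 of the 49 were below 0. The median of the family was 0.24, 0.15 and -0.12 on the arrays with the mixture in Cy5 and -0.0047, -0.038 and 0.094 on those with it in Cy3. The SD of a ttr gene over the arrays had a median of 0.33, against 0.25 for all features, and ranged from 0.086 to 1.00. These comparisons, and those of the highest and lowest arrays below, were with all features. They were not limited to detected probes, of which the family has a larger share.

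The highest array of a gene was mixture in Cy5 replicate 1 for 21 of the 49 genes (42.9%, against 19% of all features), and the lowest was mixture in Cy5 replicate 3 for 18 (36.7%, against 21.8%). Of the 8 genes called higher, 4 were highest on the former and 6 lowest on the latter. Their median was 1.18, 0.96 and 0.42 with the mixture in Cy5 and 0.60, 0.75 and 0.88 with it in Cy3. The 6 genes called lower varied less, with medians of -0.48, -0.53 and -0.34 and of -0.37, -0.30 and -0.32.

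**Figure D3:**
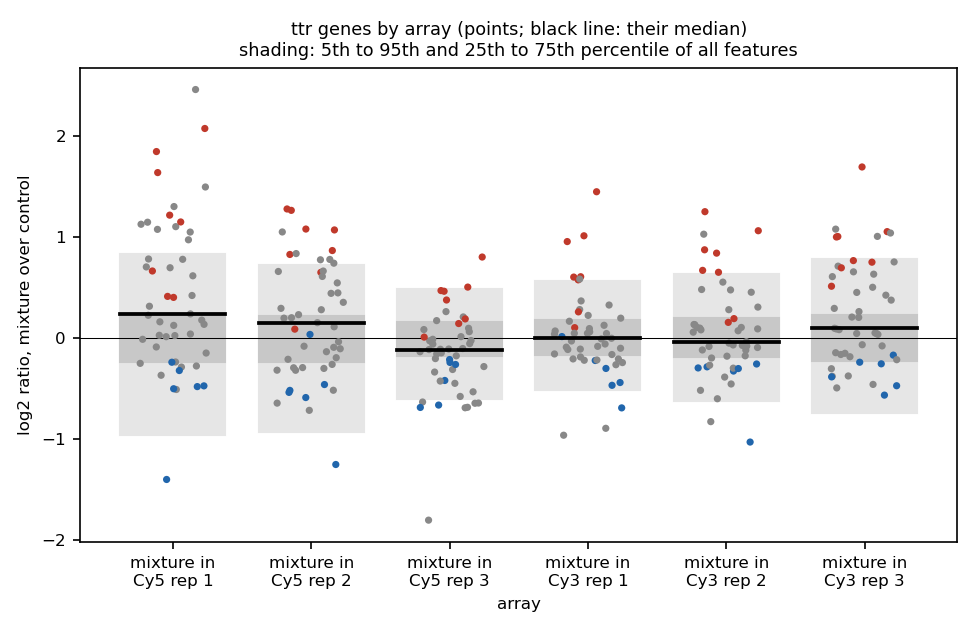
Log2 ratio of mixture over control (y axis) of the 49 ttr genes on each array (x axis), with genes called higher in red, lower in blue, the others in grey, and the median as a black line. The shading gives the middle of all features. Mixture in Cy5 replicate 1 had 13 genes above 1 and mixture in Cy5 replicate 3 had none.

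The marker lists moved across the arrays as well. The oocyte medians were -1.86, -2.21 and -0.22 on the arrays with the mixture in Cy5 and -0.69, -1.19 and -1.50 on those with it in Cy3. Those of the epidermis and molting list were 0.53, 0.63 and 0.27 and then 0.065, 0.61 and 0.37. Mixture in Cy5 replicate 3 had the smallest oocyte shift and also the smallest shift of the ttr genes called higher. With arrays in order of growing oocyte shift, the medians of these genes were 0.42, 0.60, 0.75, 0.88, 1.18 and 0.96. In the same order, those of the ttr genes called lower were -0.34, -0.37, -0.30, -0.32, -0.48 and -0.53. The part of these lists in the ttr ratios was not tested. With the oocyte median of each array as a covariate and the ratios read at an oocyte shift of 0, which lies outside the range of the arrays, limma called no ttr gene in either direction (2 higher and 9 lower at an unadjusted p under 0.05) and 92 features in all. The ratios read in this way were 0.82 for ttr-39, 0.76 for ttr-17, -0.39 for ttr-4, -0.51 for ttr-51 and -0.50 for ttr-24, and no more than 0.40 in size for the other 9 genes called without the covariate.

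Other groupings of the arrays moved with the family. The slide numbers in the file headers were lower for mixture in Cy5 replicates 1 and 2, here called the earlier slide series. The other 4 arrays had higher numbers and are called the later series. This split was inferred from the numbers alone, and whether it marks a batch or an order in time is not known. The earlier series thus held no array with the mixture in Cy3, and slide series and dye orientation cannot be fully told apart. Within the later series alone, where 1 array had the mixture in Cy5, the family's median was -0.0052, against -0.0058 for all features. With the dye term kept, that array weighed as much as the 3 arrays with the mixture in Cy3 together. A fit that blocked on the slide series called 13 ttr genes higher and 9 lower, and calls over all features rose with them to 10.6% and 12.1%. With dye and series both fitted, mixture in Cy5 replicate 3 was reproduced exactly. It therefore added nothing to the spread behind these p-values, much as when it is left out. Replicates 2 and 3 with the mixture in Cy3 were scanned on the same day as replicate 1 with it in Cy5. Over these 3 arrays the family's median was 0.24, against 0.0069 for all features. The dye term was kept here too, so replicate 1 with the mixture in Cy5 weighed as much as the other 2 together. Leaving out mixture in Cy5 replicate 3 raised the increases from 8 to 16, with 6 decreases, while calls over all features rose to 11.4% higher and 12.8% lower. The file headers give replicate 1 with the mixture in Cy3 the mixture extract number of replicate 2 with it in Cy5, so that only 5 mixture extracts may lie behind the 6 arrays, and with these 2 averaged 5 genes were called higher and 6 lower.

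**Figure D4:**
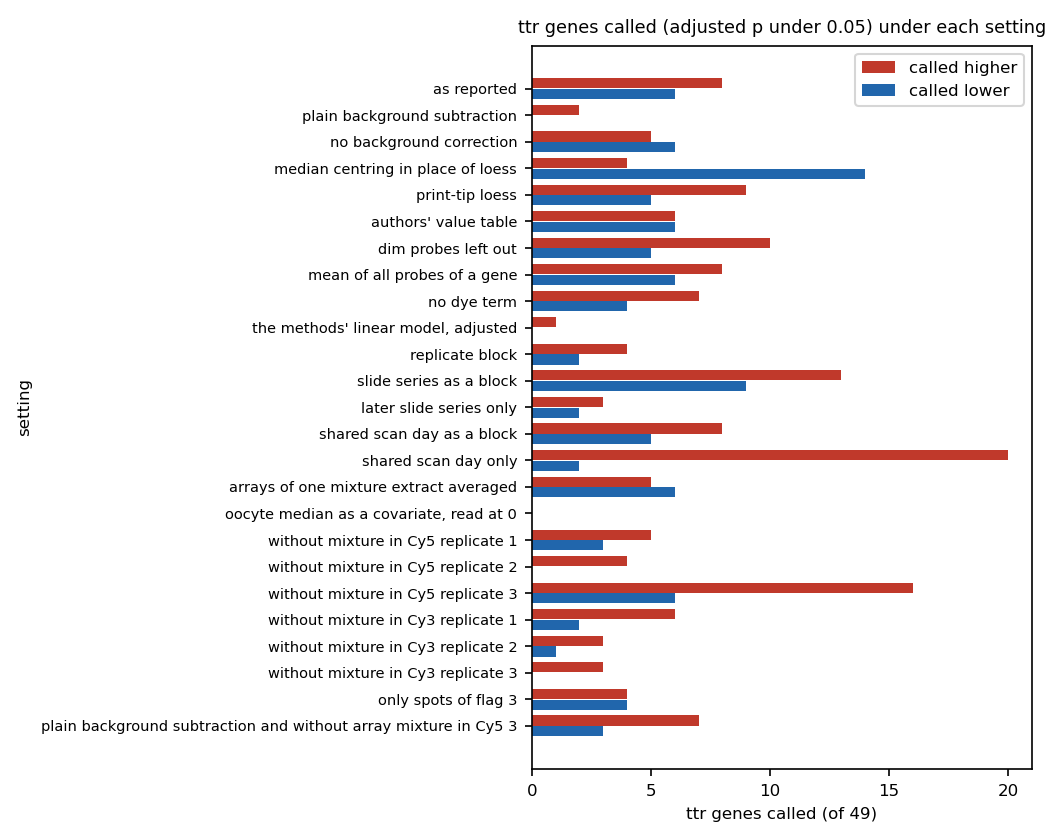
Number of the 49 ttr genes called higher (red) and lower (blue) at an adjusted p under 0.05 (x axis) as reported and under each of the other settings (y axis). The bars of the later slide series only and of the shared scan day only rest on 1 array with the mixture in Cy5. Apart from these, the count of higher calls ran from 0 with the oocyte covariate to 16 without mixture in Cy5 replicate 3.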

How the data were processed

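The deposited scanner files hold intensity values (foreground and background medians per spot and channel), as the authors extracted them without normalization. The scanner's percent of saturated pixels per spot, as deposited by the authors, was used only to look for saturated spots. A value table of log2 ratios, deposited by the authors, covers these arrays too. On the scanner ratios of bright spots its slopes were 0.501 to 0.562 for the arrays with the mixture in Cy5 and -0.612 to -0.542 for the others, so its direction was mixture over control on all 6 arrays, its columns were centred (medians -0.00313 to 0.000102) and the reason for its smaller scale is not known. Between 5.24 and 21.2% of its values were missing. It was used as an alternative. The submitters' processing notes name limma 3.2.3, and per the study's methods the authors normalized by loess within and Aquantile between arrays. Their background correction and the meaning of the spot flags are not given in the sources used here, and all spots were kept.

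Of 23232 spots, 22490 were C. elegans probes, of which 17447 had 1 symbol in the platform table, none several, and 5043 were not listed there. Symbols were completed through sequence names and the RefSeq table of assembly WBcel235, used for names and neighbours only, so that 21380 probes had a gene and 1110 had none. For 2049 genes with several probes the probe of highest mean log2 intensity stood for the gene. Foreground medians were corrected with normexp (offset 50), normalized by loess with control spots at weight 0 and by Aquantile (limma 3.58.1, R 4.3.3), and turned to mixture over control. Effects of the mixture and, per gene, of the dye were fitted to the 6 ratios with lmFit and eBayes, and p-values were adjusted by Benjamini-Hochberg over 18999 features. Every adjusted p is from this model, except where another fit is named beside it. The plain linear model of the study's methods was an alternative. The steps were tested on simulated arrays. The number of arrays limits the precision.

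Where a group detected a probe on no array, its fold was to be a lower bound, the brighter group's mean against a floor for the dimmer group (per array, the higher of the probe's own signal and the lowest signal of any detected probe). The study's methods describe the replicates as independent, but the shared extract number leaves this unsure for 2 arrays, and p-values then measure the spread between these arrays. The members and lists were chosen with earlier results of these data known. The text names every called ttr gene with its values and gives all arrays for up to 8 of the called genes in each direction, which covered all 14, and for ttr-52, ttr-11 and ttr-33, and of the clearance list the called genes with ced-1, psr-1, ced-7 and nrf-5. ttr-8, its neighbours and the GABA genes were named after their values were seen. Lists not described elsewhere gave, as higher and lower calls of the genes measured, 2 and 0 of 11 muscle genes (median 0.21), 2 and 0 of 12 pharynx genes (median 0.38) and 0 and 1 of 7 coelomocyte and glia genes (median 0.10).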

Additional observations from a re-analysis of the deposited data

Results flagged for a closer look

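Among 60 genes examined (the 49 ttr genes and the named genes of the other lists), 2 had 1 array far from the other 5, as measured by Dixon's gap ratio. ttr-11 had a log2 ratio of -1.80 on mixture in Cy5 replicate 3, with the next array at -0.25. ZK697.8, a transthyretin-like hydrolase gene, had -0.26 on mixture in Cy3 replicate 3, with the next array at 0.05. Chance flags about 1 in 20 groups. In terms of signal over background, ZK697.8 was detected on no array and ttr-11 on 1 control array only.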

How the results depend on the processing

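Of 24 alternatives, none turned the direction of any of the 14 called ttr genes. In many of them the direction could not turn. The fitted ratios of these genes stayed the same without the dye term, with the methods' linear model and with each block. The same held with all probes of a gene averaged and, where a value was given, with dim probes left out. Leaving out 1 array could not turn a gene with one sign on all 6 arrays either. ttr-39 kept its call in 22 of the 23 that gave it a value, ttr-17 in 22 of 24 and ttr-23 in 20 of 23, whereas ttr-24 and ttr-54 kept theirs in 8 of 24. Of the clearance genes, pat-3 kept its call in 13 of 24, dyn-1 in 10, eff-1 in 9, pat-2 in 8 and lst-4 in 5. The cause of the changes below was not tested. As higher calls, lower calls and all features called, plain background subtraction gave 2, 0 and 153, median centring 4, 14 and 4118, the methods' linear model with adjustment 1, 0 and 56, the slide series as a block 13, 9 and 4308, the later slide series alone 3, 2 and 891, and the oocyte covariate 0, 0 and 92. No background correction gave 5 higher calls and averaging the arrays of 1 mixture extract 5. Calls over the later slide series and the shared scan day are not listed, because each fit held only 1 array with the mixture in Cy5. Where no ttr gene was called lower, 2 to 10 had an unadjusted p under 0.05. The methods' linear model at an unadjusted p under 0.01 called 5 ttr genes higher and 2 lower. A pair of alternatives was chosen after seeing the data. Keeping only spots of flag 3 gave 4 higher and 4 lower calls. Plain subtraction without mixture in Cy5 replicate 3 gave 7 higher and 3 lower calls and a median of 0.30. In that setting 4.55% of all features were called higher and 6.06% lower. The planned use of the most common flag was not run, because only 0.126% of its spots were detected in both channels. The family's median was -0.11 with median centring, 0.24 over the shared scan day and -0.18 with the oocyte covariate.

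Leaving out 1 array gave 3 to 16 higher calls, 0 to 6 lower calls, 535 to 4609 called features and a median of 0.033 to 0.14. Without mixture in Cy5 replicates 1, 2 and 3 the higher and lower calls were 5 and 3, 4 and 0, and 16 and 6, and without mixture in Cy3 replicates 1, 2 and 3 they were 6 and 2, 3 and 1, and 3 and 0. The replicate numbers did not pair arrays of opposite dye orientation (correlations of deviations -0.107, -0.00647 and -0.233, none the best match of its number). With the replicate block 4 ttr genes were called higher, 2 lower and 950 features in all.

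Signs turned only in genes that were not called and in eff-1. With the oocyte covariate the log2 ratios were -0.19 for eff-1, -0.39 for ced-1, 0.26 for psr-1, -0.33 for ttr-33 and -0.12 for R09H10.3. With median centring they were -0.0026 for ttr-33, -0.078 for ced-7, -0.22 for nrf-5 and -0.18 for R09H10.3. In the later slide series they were -0.039 for ced-1 and -0.0026 for R09H10.3, and over the shared scan day -0.021 for ttr-52 and -0.0050 for ZK697.8. ttr-11 was 0.12 in the authors' value table, and with plain subtraction without mixture in Cy5 replicate 3 it was 0.71 and ttr-52 was -0.026. With all probes of a gene averaged R09H10.3 was -0.032. Without 1 array, ttr-52 ran from -0.023 (without mixture in Cy3 replicate 1) to 0.047, and ttr-11 from -0.57 to 0.017 (without mixture in Cy5 replicate 3). Signal over background limits 7 of the 49 ttr genes. One of the 7, ttr-50, was called lower without a usable size, and in the others a change may be missed.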
